A study of Mus musculus with 24 samples.

Results

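The 57 genes described here encode proteins that sense or mend DNA damage in the mouse, and they were sorted into 7 pathways: recombination (13 genes), the Fanconi anaemia pathway (11), end joining (5), mismatch repair (4), nucleotide excision repair (10), base excision and single-strand break repair (10) and damage signalling (4). A probe was assigned to a gene when the RefSeq transcript it was designed against maps to that gene's symbol. All 57 genes had a probe, among 23783 genes with a probe on the array, and all 57 had at least 1 probe that entered the tests. The level of a gene is the log2 signal of its brightest tested probe minus the 75th percentile of all probes on the same array, so that 0 is the 75th percentile and a difference of 1 is a 2-fold change.

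A break through both DNA strands can be sealed directly by end joining, in which Ku (Xrcc5 and Xrcc6) and DNA-PKcs (Prkdc) hold the ends for Xrcc4 and Lig4, or copied from the sister chromatid by recombination, which needs Brca1, Palb2 and Brca2 and is used in S and G2 phase. Fanconi proteins clear crosslinks that block replication forks, mismatch repair corrects replication errors, nucleotide excision removes bulky lesions and base excision removes altered bases. Atm and Atr are the kinases that report breaks and stalled replication, and Chek2 and Chek1 are their effector kinases. Many recombination and Fanconi genes are transcribed mainly in cycling cells, under the control of E2F factors.

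TM3 is an established line of mouse Leydig cells, the testosterone-producing cells of the testis. The cells were exposed in suspension to nanosecond pulsed electric fields (nsPEF) of 80 pulses of 60 ns at 14 kV/cm or were sham-exposed, and RNA was taken at 0, 4 or 24 h. This gave the groups S0, S4 and S24 (sham) and E0, E4 and E24 (nsPEF), with 4 one-colour Agilent arrays of biological replicates in each and 24 in all. By the labels the groups share the cell line and differ in exposure and time. A single established line stood for the Leydig cell. Of 9 Leydig cell markers, Star, Cyp17a1 and Nr5a1 were above background on all 24 arrays, whereas Cyp11a1, Hsd17b3, Hsd3b1, Hsd3b6 and Lhcgr did not reach the detection filter and Insl3 had no probe.

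The lowest RNA integrity number in the labels was 8.9. The 75th percentile ran from 202 to 533 intensity units, the brightest array being S4 replicate 4. The share of probes well above background was 57.5% to 62.1% on sham arrays and 51.2% to 57.2% on nsPEF arrays, no spot was saturated, and the number of arrays limits the precision. All arrays of a time point were on the same slide, and on each slide row 1 held the sham arrays and row 2 the nsPEF arrays. Differences between times therefore cannot be told apart from those between slides, nor differences between exposures from those between rows. By the study, cells went through a long preparation before exposure, with detachment, centrifugation, filtering and new medium. Cells of 0 h had just left it, whereas those of 4 and 24 h were harvested quickly. Differences between times cannot be told apart from this handling either. In such bulk RNA, fewer cells that express a gene and less RNA per cell cannot be told apart. Adjusted p is limma's, over all 37687 tested probes, and a gene was called when it was under 0.05.

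The repair genes were mostly lower 4 h after sham exposure than at 0 h. Of the 57 genes, 38 were called lower, 9 higher and 10 not called, against 29.7% of all tested probes called lower, 29.4% higher and 59.1% in either direction. The probes of 54 of the 57 genes were above background on all arrays, and of all such probes 69.6% were called and 33.8% were lower. The median log2 difference over the 57 genes was -0.40, against -0.01 over all tested probes, and single genes ranged from -1.88 to 1.57. All 4 genes of damage signalling, 10 of 11 Fanconi genes, 9 of 13 recombination genes and 4 of 5 end joining genes fell, against 5 of 10 in nucleotide excision, 5 of 10 in base excision and 1 of 4 in mismatch repair. Over the tested genes of those pathways the median difference was -0.74 for damage signalling, -0.73 for Fanconi, -0.61 for recombination, -0.55 for end joining, -0.21 for nucleotide excision, -0.12 for base excision and -0.08 for mismatch repair.

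**Figure D1:**
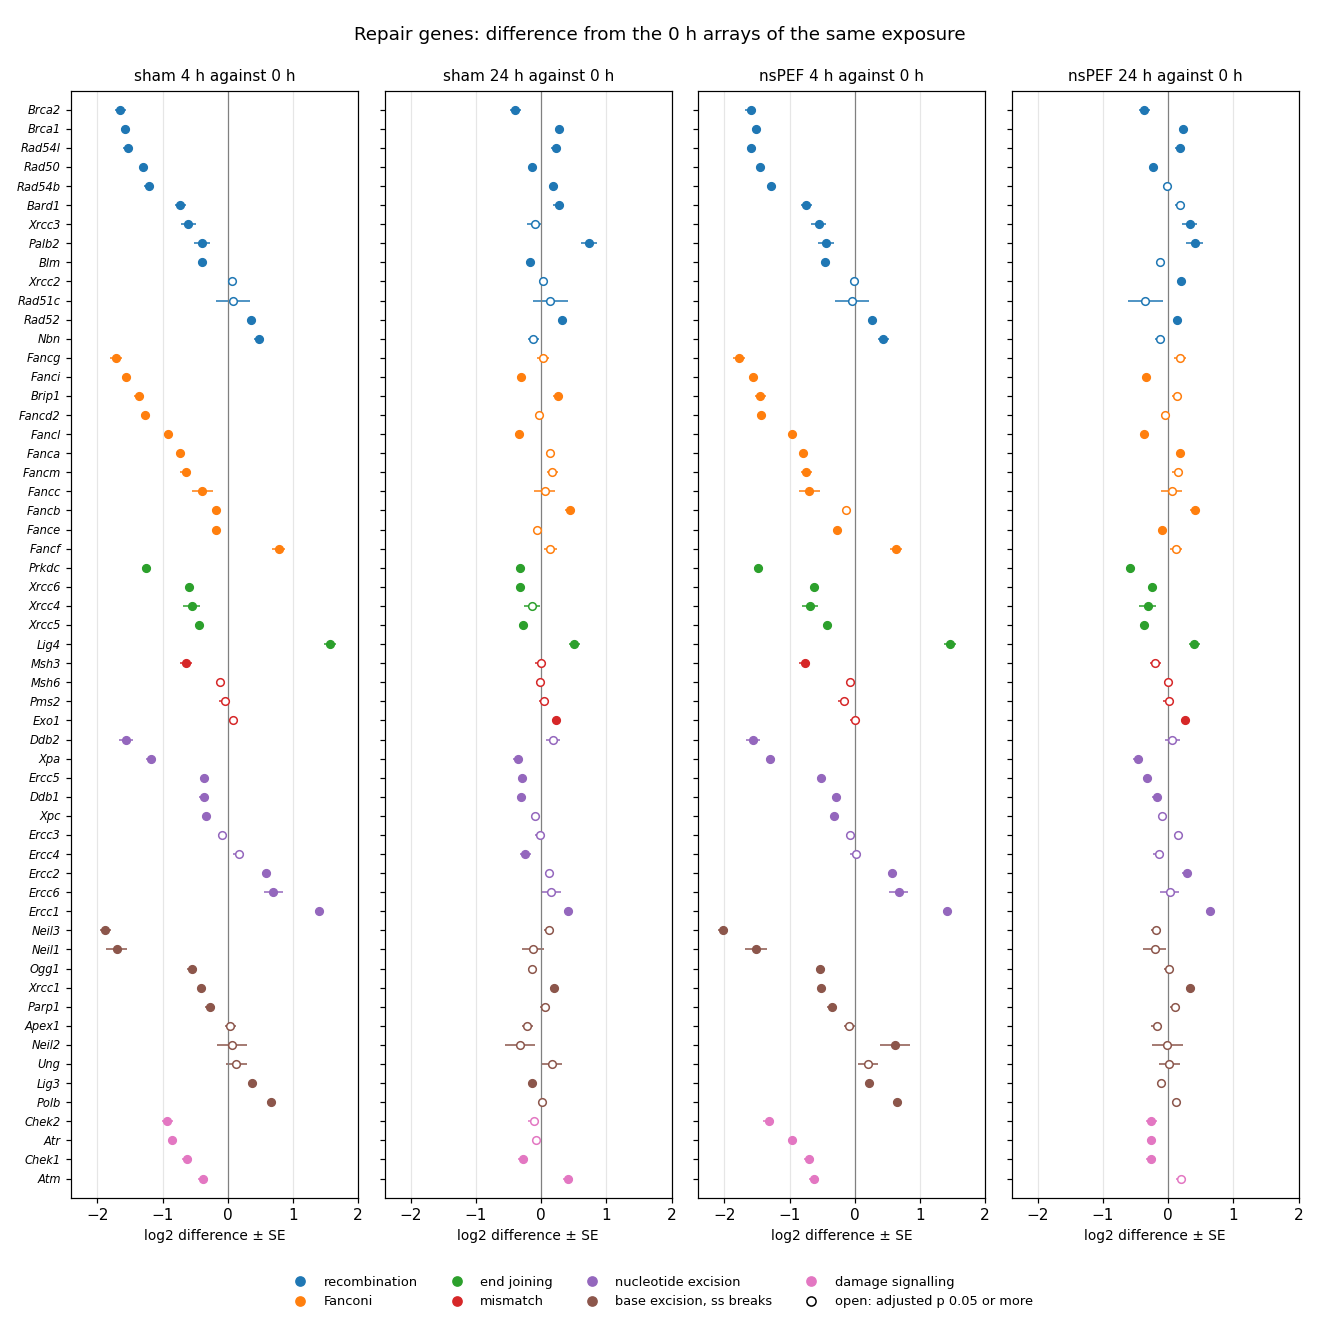
Log2 difference of each of the 57 repair genes from the 0 h arrays of the same exposure, with its standard error, at 4 and 24 h in sham-exposed and nsPEF-exposed cells. Colours mark the pathways and open circles an adjusted p of 0.05 or more. In the sham 4 h panel 38 filled circles lie left of 0 and 9 right of it, while at 24 h the sham genes lie between -0.40 and 0.74.

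In recombination, Brca2, which prepares resected single-stranded DNA for strand exchange, measured 1.39 to 1.56 at 0 h and -0.29, -0.37, -0.16 and 0.08 at 4 h. Brca1, which starts resection with Bard1 and recruits Palb2, measured 2.23, 2.20, 2.15 and 2.28 at 0 h and 0.71, 0.67, 0.65 and 0.52 at 4 h. For both genes every 4 h array lay below every 0 h array, and the log2 differences were -1.65 ± 0.08 (SE, adjusted p = 7.94e-13) and -1.58 ± 0.06 (adjusted p = 3.76e-15) or 0.319-fold and 0.335-fold. Rad54l (-1.53) and Rad54b (-1.22), translocases that act on chromatin during strand exchange, and Rad50 (-1.30), the coiled-coil subunit of the complex that tethers broken ends, also fell by more than 1 on the log2 scale. Bard1 (-0.73), the strand exchange cofactor Xrcc3 (-0.61), Palb2 (-0.40) and the helicase Blm (-0.40) fell less. Rad52, a strand-annealing protein, and Nbn, the partner of Rad50 that binds Atm, went the other way and rose by 0.36 and 0.48. The subunits Rad50 and Nbn, which work in 1 complex, thus moved in opposite directions. Xrcc2 (0.06) and Rad51c (0.08) were not called, Rad51c with a standard error of 0.26. Rad51c was low on S4 replicate 4, without which its difference was 0.40 and still not called (adjusted p = 0.124).

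In the Fanconi group, Fancg, a scaffold of the core complex, measured 1.05, 1.23, 1.30 and 1.14 at 0 h and -0.45, -0.63, -0.71 and -0.35 at 4 h. Fanci, which with Fancd2 is ubiquitinated at a crosslink, measured 2.04, 2.14, 2.11 and 1.96 at 0 h and 0.45, 0.44, 0.55 and 0.58 at 4 h. The groups did not overlap for either gene, and the log2 differences were -1.72 ± 0.09 (adjusted p = 1.81e-12) and -1.56 ± 0.06 (adjusted p = 5.99e-15). The helicase Brip1 (-1.36), Fancd2 (-1.27), the partner of Fanci, and the ubiquitin ligase Fancl (-0.92) followed, then Fanca (-0.73), Fancm (-0.65), Fancc (-0.39), Fancb (-0.18) and Fance (-0.17). The call of Fancb was lost without S0 replicate 2 (-0.12) or S4 replicate 4 (-0.15), and that of Fancc, at an adjusted p of 0.0463, in most fits that leave out 1 array. Fancf, an adaptor of the core complex, was alone in this group in rising, by 0.78. Within 1 core complex the differences therefore ran from -1.72 for Fancg to 0.78 for Fancf.

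In end joining, Lig4, the ligase that seals the ends, measured 0.08, 0.17, -0.07 and -0.01 at 0 h and 1.72, 1.70, 1.63 and 1.39 at 4 h. It rose by 1.57 ± 0.09 (adjusted p = 4.64e-12), or 2.96-fold, the largest rise among the 57 genes. Its partner Xrcc4, which stabilizes the ligase, fell by 0.55. Prkdc measured 0.77, 0.89, 0.85 and 0.89 at 0 h and -0.45, -0.37, -0.39 and -0.39 at 4 h and fell by 1.25 ± 0.07 (adjusted p = 2.37e-12). The Ku subunits Xrcc6 and Xrcc5 fell by 0.59 and 0.45.

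In mismatch repair, Msh3, which recognises insertion loops, measured 2.72, 2.77, 2.59 and 2.93 at 0 h and 2.26, 2.17, 2.07 and 1.95 at 4 h. Its difference was -0.64 ± 0.09 (adjusted p = 1.81e-06), with no overlap of the groups. Msh6 (-0.11), Pms2 (-0.05) and the exonuclease Exo1 (0.08) were not called, although Msh6 was called without S0 replicate 3 (-0.17) or S4 replicate 3 (-0.14).

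Nucleotide excision repair was split. Ddb2, which finds UV photoproducts in chromatin, measured 0.71, 0.68, 0.60 and 0.75 at 0 h and -1.02, -0.91, -0.73 and -0.86 at 4 h, a difference of -1.56 ± 0.11 (adjusted p = 9.68e-11). Ercc1, which forms the 5′ incision nuclease with Ercc4, measured 1.61, 1.62, 1.67 and 1.72 at 0 h and 3.01, 3.07, 3.05 and 3.08 at 4 h, a rise of 1.40 ± 0.06 (adjusted p = 1.15e-13) or 2.64-fold. Each of the 4 h arrays was thus below all 0 h arrays for Ddb2 and above them for Ercc1. The damage verifier Xpa (-1.18), the 3′ nuclease Ercc5 (-0.37), Ddb1 (-0.37) and the lesion sensor Xpc (-0.33) fell, whereas the helicase Ercc2 (0.59) and the transcription-coupled repair factor Ercc6 (0.70) rose, and Ercc3 (-0.08) and Ercc4 (0.17) were not called. Ercc6 was above background on 19 of the 24 arrays.

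Base excision held the largest fall. Neil3, a glycosylase active on single-stranded and crosslinked DNA, measured 2.40, 2.34, 2.11 and 2.46 at 0 h and 0.65, 0.43, 0.36 and 0.34 at 4 h. Neil1, a related glycosylase, measured 0.88, 0.87, 0.79 and 0.83 at 0 h and -0.84, -0.72, -0.96 and -0.93 at 4 h. Their differences were -1.88 ± 0.08 (adjusted p = 8.38e-14) and -1.70 ± 0.16 (adjusted p = 2.5e-08), with no overlap. Ogg1 (-0.55), which removes oxidised guanine, the scaffold Xrcc1 (-0.41) and the break sensor Parp1 (-0.27) also fell. Xrcc1's ligase partner Lig3 rose by 0.37 and the gap-filling polymerase Polb by 0.66, while Apex1 (0.04), Neil2 (0.06) and Ung (0.13) were not called. Ung was also low on S4 replicate 4, and without that array it was called higher by 0.35 (adjusted p = 0.0118).

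All 4 signalling kinases fell. Chek2 measured -0.70, -0.67, -0.79 and -0.68 at 0 h and -1.79, -1.81, -1.41 and -1.56 at 4 h, and Atr measured 2.57, 2.69, 2.50 and 2.74 at 0 h and 1.87, 1.73, 1.77 and 1.74 at 4 h. Neither gene's groups overlapped, and the differences were -0.93 ± 0.08 (adjusted p = 5.99e-09) and -0.85 ± 0.06 (adjusted p = 6.69e-11). Chek1 fell by 0.63 and Atm by 0.38.

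**Figure D2:**
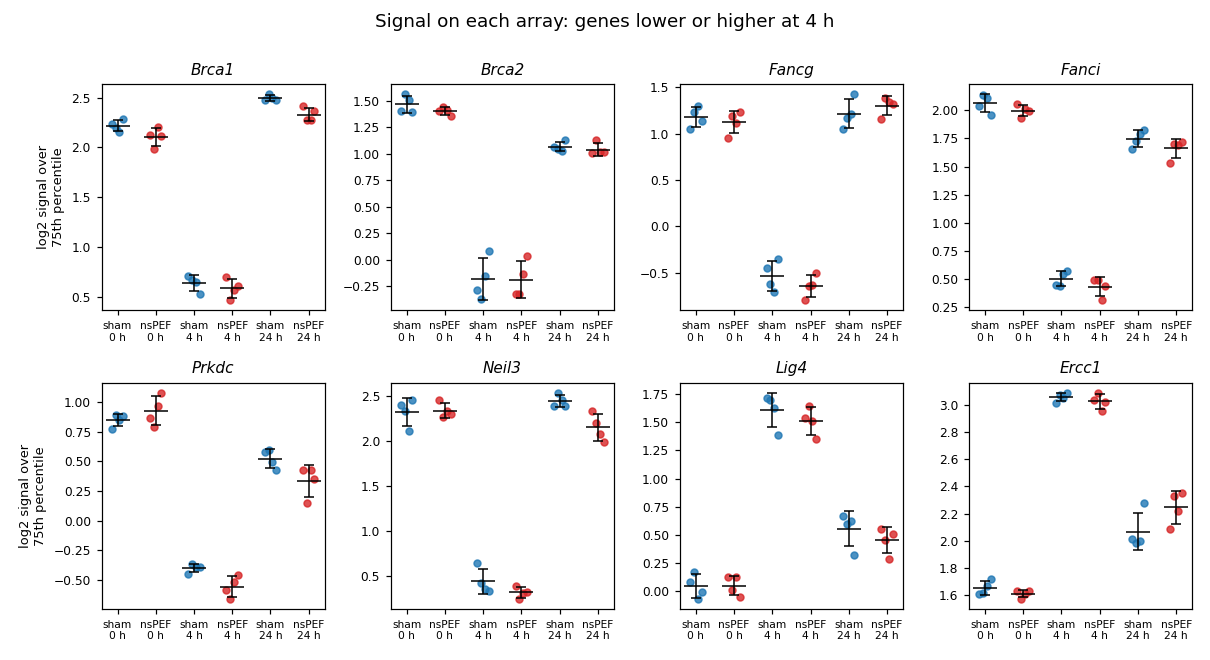
Log2 signal over the array's 75th percentile on each of the 24 arrays for 6 genes that fell (Brca1, Brca2, Fancg, Fanci, Prkdc, Neil3) and 2 that rose (Lig4, Ercc1) at 4 h. Points are arrays, sham in blue and nsPEF in red, with the mean and SD of 4 arrays in black. At 4 h the points of Brca1 lie between 0.47 and 0.71, against 1.99 to 2.28 at 0 h.

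Nearly the same genes were called 4 h after nsPEF exposure. The means came from the E0 and E4 arrays, which the sham means did not use. These arrays lay on the same slides as S0 and S4, and all 24 arrays shared a single estimate of the spread. The sham and nsPEF comparisons are therefore not independent. Of the 57 genes, 37 were called lower and 10 higher at 4 h against 0 h in nsPEF-exposed cells, against 27.8% of all tested probes lower, 33.5% higher and 61.3% in either direction. The 37 lower genes were all among the 38 of the sham comparison (97.4% of the sham list and 100% of the nsPEF list), Fancb being called lower in sham and, at -0.13, not called in nsPEF. Of the 10 higher genes, 9 were the 9 of the sham comparison, and the other was Neil2 (0.62), whose probe was above background on 20 of the 24 arrays and whose call was lost without E0 replicate 1, 3 or 4 or E4 replicate 3 or 4 (adjusted p 0.0575 to 0.103). Neil3 measured 2.46, 2.27, 2.34 and 2.31 on the E0 arrays and 0.40, 0.25, 0.31 and 0.32 on the E4 arrays, a difference of -2.02. Lig4 measured 0.12, 0.00, 0.12 and -0.05 on E0 and 1.54, 1.65, 1.51 and 1.35 on E4, a difference of 1.46. Fancg (-1.77), Brca2 (-1.59), Fanci (-1.57), Ddb2 (-1.56), Brca1 (-1.52), Neil1 (-1.51), Prkdc (-1.48), Chek2 (-1.32), Atr (-0.96), Msh3 (-0.77) and Ercc1 (1.41) kept the direction they had in sham-exposed cells.

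Genes of the cell cycle moved with the repair genes. Of 20 S phase genes, 16 were called lower and 1 higher at 4 h in sham-exposed cells (median difference -0.48), and of 20 mitosis genes all 20 were lower (median -0.73). The summed linear signal of the S phase genes, in multiples of the 75th percentile, was 615 to 646 on the S0 arrays, 414 to 486 on S4 and 614 to 632 on S24. That of the mitosis genes was 457 to 495 on S0, 302 to 339 on S4 and 403 to 420 on S24. All but 1 gene of each list were above background on all 24 arrays. Cell type markers moved too. The summed signal of the 2 tested macrophage markers was 3.09 to 3.29 on S0 and 4.78 to 5.78 on S4, that of the 4 germ cell markers 1.31 to 1.47 and 0.44 to 0.57, that of the 2 Sertoli markers 1.27 to 1.30 and 0.72 to 0.82, and that of the endothelial marker 0.106 to 0.131 and 0.078 to 0.094. The 3 tested markers of Leydig cells themselves summed to 4.34 to 6.26 on S0 and 3.58 to 4.60 on S4, which overlap. Of 12 targets of p53, 6 were higher and 5 lower. Their summed signal was 95.5 to 100.3 on S0, 167.8 to 189 on S4 and 99.1 to 103.6 on S24. The part of these lists in the repair result was not tested.

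The further genes of these pathways, 79 tested of 80 listed, were also more often lower than higher at 4 h in sham-exposed cells. Of them, 40 were called lower, 23 higher and 16 not called, with a median difference of -0.25. The shares of all tested probes were 29.7% lower, 29.4% higher and 59.1% in either direction. In recombination 11 of 19 were lower and 4 higher, led by Rad51b (-1.84) and the nuclease Dna2 (0.66). In base excision 8 of 12 were lower and 3 higher, led by the glycosylase Mbd4 (-1.32) and the endonuclease Apex2 (0.81), and in end joining 5 of 8 were lower and 2 higher, led by the polymerases Poll (-0.70) and Polm (0.36). All 4 further mismatch genes were lower, among them Pms1 (-0.62). The further nucleotide excision genes were lower in 5 of 14 and higher in 7, led by Mnat1 (-0.76) of the kinase module of TFIIH and by Ercc8 (1.18), the transcription-coupled partner of Ercc6. The further Fanconi genes were lower in 3 of 8 and higher in 2, led by the translesion polymerase Rev3l (-0.73) and by Faap24 (0.84), and the further signalling genes lower in 4 of 14 and higher in 5, led by the fork protein Timeless (-1.11) and the clamp subunit Hus1 (1.22). Signalling and Fanconi, in which nearly all genes described above fell, thus did not lead here, whereas all the further mismatch genes fell.

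The promoters of some of the genes that fell hold an E2F-type octamer, a sequence bound by the factors that switch on S phase genes. RefSeq promoters (build GRCm38.p6) matched 45 of the 57 genes. In the 250 bases before the start site, any of TTTCCCGC, TTTCGCGC, TTTGCCGC or TTTGGCGC, searched on both strands, was present in 1.86% of all 32851 promoters. It was present in 6 of the 45 repair genes (13.3%): Bard1, Brca2, Chek2, Fancg, Msh3 and Xrcc6, all of them among the 32 genes with a promoter that were lower at 4 h, and in none of the 7 that were higher or the 6 not called. Those 7 and 6 genes are too few for the lack of a match to set them apart. The 1.86% counts single promoters, whereas a gene counted if any of its promoters matched, and 3 genes had several. A match is a description of the letters and does not show binding. The sequences are shown 5′ to 3′ in the direction of the gene, with the octamer in capitals, for those 4 whose values are given above and for the 2 genes with the largest rises, Lig4 and Ercc1, which hold none. The octamer of Brca2 (chr5:150522371-150522620 on the plus strand) begins 168 bases before the start site, that of Chek2 (chr5:110839733-110839982 on the plus strand) 152 bases, and that of Fancg (chr4:43010302-43010551 on the minus strand) 52 bases before it. Msh3 (chr13:92355004-92355253 on the minus strand) has a pair of octamers, 1 on each strand, that overlap and begin 202 and 198 bases before its start site. Lig4 is at chr8:9977681-9977930 on the minus strand and Ercc1 at chr7:19344821-19345070 on the plus strand.
Brca2: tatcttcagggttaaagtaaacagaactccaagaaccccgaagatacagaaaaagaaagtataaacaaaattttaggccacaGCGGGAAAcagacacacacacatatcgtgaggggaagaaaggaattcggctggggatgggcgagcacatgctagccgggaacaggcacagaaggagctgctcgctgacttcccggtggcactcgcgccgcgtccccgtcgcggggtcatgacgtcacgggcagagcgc
Chek2: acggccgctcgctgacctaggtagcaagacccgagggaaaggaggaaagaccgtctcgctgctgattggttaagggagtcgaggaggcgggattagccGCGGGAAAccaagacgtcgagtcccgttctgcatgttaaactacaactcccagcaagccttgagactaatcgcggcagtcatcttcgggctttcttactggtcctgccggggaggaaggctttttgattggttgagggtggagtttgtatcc
Fancg: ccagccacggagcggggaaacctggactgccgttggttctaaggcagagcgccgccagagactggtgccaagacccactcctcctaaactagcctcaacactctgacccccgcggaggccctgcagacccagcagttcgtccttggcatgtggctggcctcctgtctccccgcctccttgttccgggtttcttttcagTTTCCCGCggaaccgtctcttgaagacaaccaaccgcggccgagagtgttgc
Msh3: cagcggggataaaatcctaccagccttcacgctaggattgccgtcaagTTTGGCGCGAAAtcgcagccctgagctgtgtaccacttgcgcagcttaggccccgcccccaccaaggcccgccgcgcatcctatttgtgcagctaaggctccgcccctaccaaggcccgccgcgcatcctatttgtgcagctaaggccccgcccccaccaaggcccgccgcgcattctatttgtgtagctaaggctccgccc
Lig4: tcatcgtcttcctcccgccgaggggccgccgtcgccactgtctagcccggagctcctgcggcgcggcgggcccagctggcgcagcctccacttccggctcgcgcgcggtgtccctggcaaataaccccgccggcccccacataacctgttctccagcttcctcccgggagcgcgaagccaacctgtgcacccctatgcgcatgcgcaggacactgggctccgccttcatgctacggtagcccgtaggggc
Ercc1: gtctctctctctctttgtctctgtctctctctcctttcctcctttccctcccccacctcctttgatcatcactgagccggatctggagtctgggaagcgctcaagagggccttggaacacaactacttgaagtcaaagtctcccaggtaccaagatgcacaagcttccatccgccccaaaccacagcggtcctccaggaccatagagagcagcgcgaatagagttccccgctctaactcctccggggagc

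Between 4 and 24 h most of the repair genes rose. Of the 57 genes, 36 were called higher and 10 lower at 24 h than at 4 h in sham-exposed cells, against 27.8% of all tested probes higher, 29.9% lower and 57.7% in either direction. With spike-in scaling, under which the median of all tested probes moved to 0.69, the split was 50 higher and 2 lower. This comparison and that of 4 h with 0 h share the S4 arrays, so they are not independent. Neil3 measured 2.40, 2.54, 2.46 and 2.39 at 24 h, 2.00 above its 4 h level, and Brca1 measured 2.48, 2.53, 2.50 and 2.48, 1.86 above it. Fancg (1.75), Ddb2 (1.74), Fanci (1.25) and Brca2 (1.25) also rose between 4 and 24 h, whereas Lig4 fell by 1.06 and Ercc1 by 0.99. Fancg measured 1.05, 1.17, 1.21 and 1.43 at 24 h, which overlaps its 0 h arrays.

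Set against 0 h, the 24 h sham arrays gave 13 genes called higher, 14 lower and 30 not called, against 16.9% of all tested probes higher, 19.7% lower and 36.6% in either direction. Among probes above background on all arrays, 44.9% were called and 25.1% were lower. The median difference over the 57 genes was -0.01 and the range -0.40 to 0.74. The direction of the whole group at 24 h rested on the scaling: with spike-in scaling the median of all tested probes moved to 0.73 and 56 of the 57 genes were called higher and none lower, although relative to that median 29 genes were below and 28 above it. With values centred by spot row and signal the split was 15 higher and 10 lower. Palb2, which links Brca1 to Brca2, measured -1.40, -1.32, -1.45 and -1.41 at 0 h and -0.64, -0.56, -0.54 and -0.89 at 24 h and rose by 0.74 ± 0.12 (adjusted p = 0.000106). All its 24 h arrays were above its 0 h arrays, although at 4 h it was 0.40 below. Of the pair that it links, Brca2 was lower at 24 h, at -0.40, and Brca1 higher, at 0.28. Of the other probes of Brca2, 1 was also called lower (-0.21, adjusted p = 0.00703) and 1 was not called (0.06), and the second probe of Brca1 was not called (-0.13).

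Lig4 measured 0.67, 0.60, 0.62 and 0.32 at 24 h, 0.51 ± 0.09 above 0 h (adjusted p = 0.000148), and Ercc1 measured 2.02, 1.98, 2.00 and 2.28, 0.41 ± 0.06 above (adjusted p = 3.12e-05). Fancb, a core complex subunit, was 0.44 ± 0.07 higher (adjusted p = 3.74e-05) and Atm 0.40 ± 0.08 higher (adjusted p = 0.000422). Atm had been 0.38 below its 0 h level at 4 h, so that it crossed that level between the 2 times. Exo1 was 0.23 ± 0.07 higher (adjusted p = 0.0106) and Xrcc1 0.19 ± 0.05 higher (adjusted p = 0.00765). These last calls were not made in all fits that leave a replicate number out of every group: Exo1's adjusted p then ran from 0.0122 to 0.118 and Xrcc1's from 0.0138 to 0.114. In end joining 3 of 5 genes were lower (Prkdc -0.33, Xrcc6 -0.33, Xrcc5 -0.29), and 4 of 10 nucleotide excision genes were lower (Xpa -0.36, Ddb1 -0.31, Ercc5 -0.29, Ercc4 -0.25). The call of Ercc4 was lost without S0 replicate 1 or 4 or S24 replicate 2 or 4 (adjusted p 0.0676 to 0.0911).

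In nsPEF-exposed cells 13 genes were called higher and 15 lower at 24 h against 0 h, against 23.9% of all tested probes higher, 18.3% lower and 42.2% in either direction. Among probes above background on all arrays, 48.1% were called and 22.8% were lower. The split of the repair genes was 17 higher and 12 lower with the 75th percentile taken over detected probes, and 49 higher and none lower with spike-in scaling, under which the median of all tested probes was 0.60. Of the 14 genes lower in sham, 11 were lower in nsPEF (78.6% of the sham list and 73.3% of the nsPEF list), and of the 13 higher in each, 9 were shared (69.2% of each list). Prkdc (-0.59), Xpa (-0.47), Xrcc5 (-0.38), Fancl (-0.37), Brca2 (-0.37), Fanci (-0.33), Ercc5 (-0.33), Xrcc4 (-0.32) and Atr (-0.27) were among the lower genes, and Ercc1 (0.64), Fancb (0.41), Palb2 (0.40), Lig4 (0.40), Xrcc3 (0.33) and Xrcc1 (0.33) among the higher. Xrcc3 rested on E24 replicate 3: without that array its difference was 0.14 and not called (adjusted p = 0.0725). The call of Palb2 was lost without E0 replicate 4 or E24 replicate 1 (0.0571 and 0.0588), and that of Xrcc4, at an adjusted p of 0.0492, in most of the fits that leave out 1 array. Differences between sham and nsPEF time courses were tested by the interaction of exposure and time, which called none of the 57 genes, against 0.377% of all tested probes. The plain two-way analysis of variance called none either. At an unadjusted p under 0.05 the interaction held 7 of the 57 genes, against 16.7% of all tested probes.

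The direct comparison of nsPEF with sham called few repair genes, with small differences that were all lower after nsPEF. Over all times, 7 of the 57 genes were called lower and none higher, against 4.44% of all tested probes lower, 4.4% higher and 8.84% in either direction. In the 0 h arrays none was called by limma or by the plain analysis of variance, and 0.0716% of all tested probes were higher, 0.0557% lower and 0.127% in either direction. In the 4 h arrays 2 were lower and none higher, against 1.6% of all tested probes lower, 1.71% higher and 3.31% in either direction. In the 24 h arrays 3 were lower and none higher, against 2.18% lower, 2.64% higher and 4.82% in either direction. Of the probes above background on all arrays, 8.27% were called over all times and 5.87% were lower. At 4 h 3.06% of such probes were called and 2.09% were lower, and at 24 h 4.94% and 2.84%. The counts of called genes at 4 h and at 24 h lie near the shares called in either direction. An unadjusted p under 0.05 was reached over all times by 20 genes (26.1% of all tested probes), at 0 h by 2 (10%), at 4 h by 13 (21%) and at 24 h by 16 (22.1%). Of the 57 genes, 49 were below 0 over all times (50.3% of all tested probes), 42 at 0 h (59.9%), 50 at 4 h (49.1%) and 39 at 24 h (45.7%). With spike-in scaling the median over the 57 genes turned from -0.10 to 0.11 at 4 h, but the median of all tested probes was then 0.21, and 50 of the 57 genes were below it. Every nsPEF array was lower than every sham array for 3 of the 57 genes at 0 h (4.33% of all tested probes), for 9 at 4 h (6.38%) and for 9 at 24 h (7.16%). Every nsPEF array was higher for none at 0 h (4.37%), none at 4 h (7.63%) and 1 at 24 h (7.12%).

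**Figure D3:**
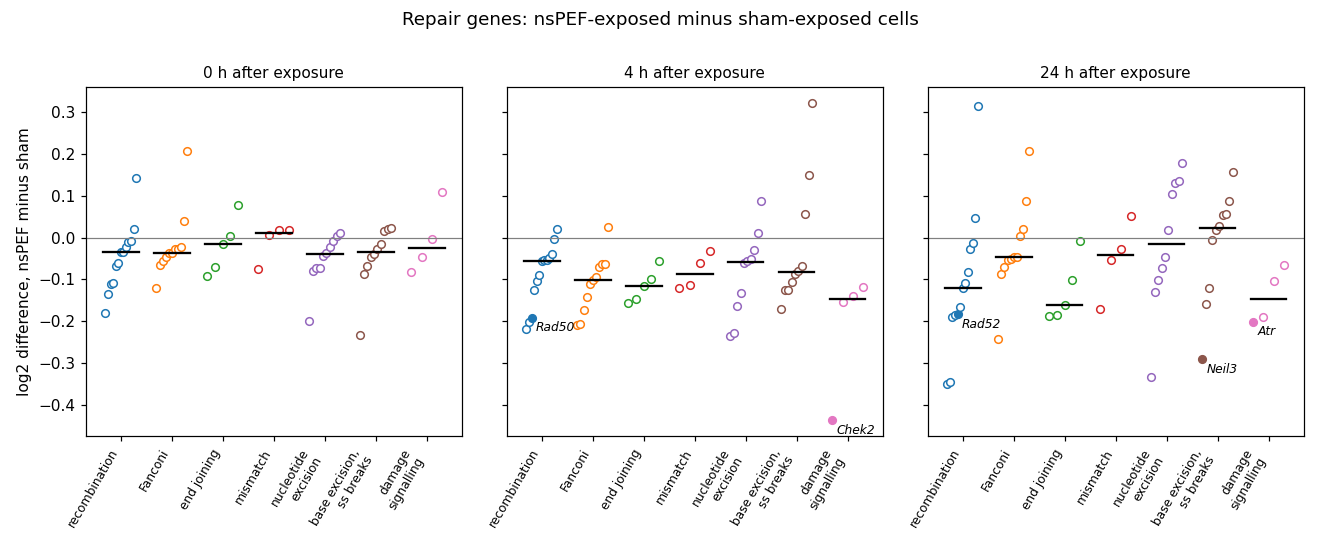
Log2 difference of each repair gene between nsPEF-exposed and sham-exposed cells at 0, 4 and 24 h, by pathway. Points are genes, bars are the median of the pathway and filled, named points have an adjusted p under 0.05. The named points are Chek2 (-0.44) and Rad50 (-0.19) at 4 h and Neil3 (-0.29), Atr (-0.20) and Rad52 (-0.18) at 24 h, and at 0 h no point is filled.

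The largest of these differences was that of Chek2, the kinase activated by Atm. At 4 h it measured -1.79, -1.81, -1.41 and -1.56 on the sham arrays and -1.98, -2.24, -1.91 and -2.17 on the nsPEF arrays, with no overlap, a difference of -0.44 ± 0.08 (adjusted p = 0.0114) or 0.74-fold. At 24 h it measured -0.82, -0.84, -0.77 and -0.88 in sham and -1.05 to -0.99 in nsPEF, again with no overlap, but its difference of -0.19 was not called there. Over all times the difference was -0.22 ± 0.05 (adjusted p = 0.0102), called in all 24 fits that leave out 1 array. It was not called with another background correction (normexp, adjusted p = 0.133) or with scaling on the spike-in spots (0.154), and at 4 h not with these (0.287 and 0.106) nor in the 8 arrays of 4 h alone (0.154). Leaving a replicate number out of every group also ended the call over all times for numbers 2 and 4 (0.0819 and 0.0635) and at 4 h for numbers 3 and 4 (0.0652 and 0.1). The size of the difference depended on the setting too. Over all settings and left-out fits it ran from -0.59 to -0.07 at 4 h and from -0.30 to -0.06 over all times.

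Atr, the kinase of stalled replication forks, measured 2.54, 2.62, 2.57 and 2.48 on S24 and 2.48, 2.25, 2.37 and 2.30 on E24, where the highest nsPEF value lay just above the lowest sham value. Its difference at 24 h was -0.20 ± 0.06 (adjusted p = 0.0487) and over all times -0.11 ± 0.03 (adjusted p = 0.0471). Both calls were close to the threshold: over all times it stayed called in 5 of the 24 fits that leave out 1 array (those without S0 replicate 3, E0 replicate 3, S4 replicate 4, S24 replicate 4 or E24 replicate 1), with adjusted p from 0.0211 to 0.0841, and at 24 h in 7 (without S0 replicate 3 or 4, E0 replicate 2, S4 replicate 1 or 4, S24 replicate 4 or E24 replicate 1), with 0.0128 to 0.163. Both calls were lost in all 4 fits that leave a replicate number out of every group, and in 6 other settings each.

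Nbn and Rad50, subunits of the end-tethering complex, were both lower after nsPEF. Nbn measured 0.18, 0.25, 0.14 and 0.09 on S0 and -0.08, -0.00, -0.01 and 0.03 on E0, and 0.10, 0.07, 0.12 and -0.12 on S24 and -0.09, -0.17, -0.16 and -0.15 on E24, and its difference over all times was -0.19 ± 0.05 (adjusted p = 0.0178). The groups did not overlap at 0 h and did at 24 h. Rad50 measured 0.99, 1.02, 1.04 and 0.79 on S4 and 0.80, 0.75, 0.77 and 0.77 on E4, where its lowest sham value (S4 replicate 4) lay within the nsPEF values. Its difference was -0.19 ± 0.05 at 4 h (adjusted p = 0.0374) and -0.12 ± 0.03 over all times (adjusted p = 0.0183). The calls over all times of both genes held in all 24 fits that leave out 1 array, whereas that of Rad50 at 4 h was lost without S4 replicate 1, 2 or 3 or E4 replicate 2, 3 or 4 (adjusted p 0.0669 to 0.0985). Over all times Nbn was not called without number 2 or 3 in every group (0.162 and 0.158), centred by spot row (0.0935) or with spike-in scaling (0.36). Rad50 was not called over all times without number 1, 2 or 3 (0.0773, 0.148 and 0.166), with the mean of its probes (0.791), the percentile over detected probes (0.0707), row centring (0.106) or spike-in scaling (0.884), and at 4 h it was lost in 8 of the other settings, the replicate block (0.0525) among them.

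Rad52 measured 0.32, 0.39, 0.27 and 0.34 on S24 and 0.20, 0.17, 0.17 and 0.06 on E24, with no overlap. Its difference was -0.18 ± 0.05 at 24 h (adjusted p = 0.0349) and -0.10 ± 0.03 over all times (adjusted p = 0.0337). The call at 24 h was lost without any of the 4 S24 arrays or without E24 replicate 2 or 4 (0.0518 to 0.121), and that over all times without S0 replicate 1 or 3, E0 replicate 1, S4 replicate 3, E4 replicate 4, S24 replicate 2 or E24 replicate 4 (0.0517 to 0.0632). Both calls were lost in all 4 fits that leave out a replicate number and with the mean of its probes (0.646 and 0.771). They were also lost with the percentile over detected probes (0.086 and 0.221) and normexp (0.138 and 0.0888). The same held with spike-in scaling (0.13 and 0.924) and row centring (0.0766 and 0.085), and at 24 h in its 8 arrays alone (0.141).

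Brca1 measured 2.48, 2.53, 2.50 and 2.48 on S24 and 2.41, 2.27, 2.27 and 2.36 on E24, with no overlap, and its difference over all times was -0.11 ± 0.03 (adjusted p = 0.0424). It stayed called in 6 of the 24 fits that leave out 1 array (without S0 replicate 3, E0 replicate 3, S4 replicate 4, E4 replicate 1, S24 replicate 4 or E24 replicate 1), with adjusted p from 0.0235 to 0.0749, in none of the 4 that leave out a replicate number, and not with the mean of its probes (0.374). Nor was it called with quantile normalization (0.0632), the percentile over detected probes (0.134), normexp (0.0636), spike-in scaling (0.956) or row centring (0.0745). Brip1, the helicase that binds Brca1, measured 0.20, 0.24, 0.26 and 0.13 on S24 and 0.11, -0.09, -0.10 and -0.05 on E24, and its difference over all times was -0.19 ± 0.05 (adjusted p = 0.017), called in all 24 fits that leave out 1 array. It was not called with normexp (0.0786), with spike-in scaling (0.335), centred by spot row (0.0634) or without replicate number 2, 3 or 4 in every group (0.164, 0.0879 and 0.0501).

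Neil3 measured 2.40, 2.54, 2.46 and 2.39 on S24 and 2.34, 2.20, 2.09 and 2.00 on E24, with all nsPEF arrays below all sham arrays, and its difference at 24 h was -0.29 ± 0.08 (adjusted p = 0.0479). The call held in 5 of the 24 fits that leave out 1 array (without S0 replicate 3 or 4, S4 replicate 1 or 4, or E24 replicate 1), with adjusted p from 0.0133 to 0.161, and was lost without number 2, 3 or 4 in every group (0.316, 0.217 and 0.16). It was also lost with normexp (0.113), spike-in scaling (0.102) and row centring (0.0504), and in the 8 arrays of 24 h alone (0.14).

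**Figure D4:**
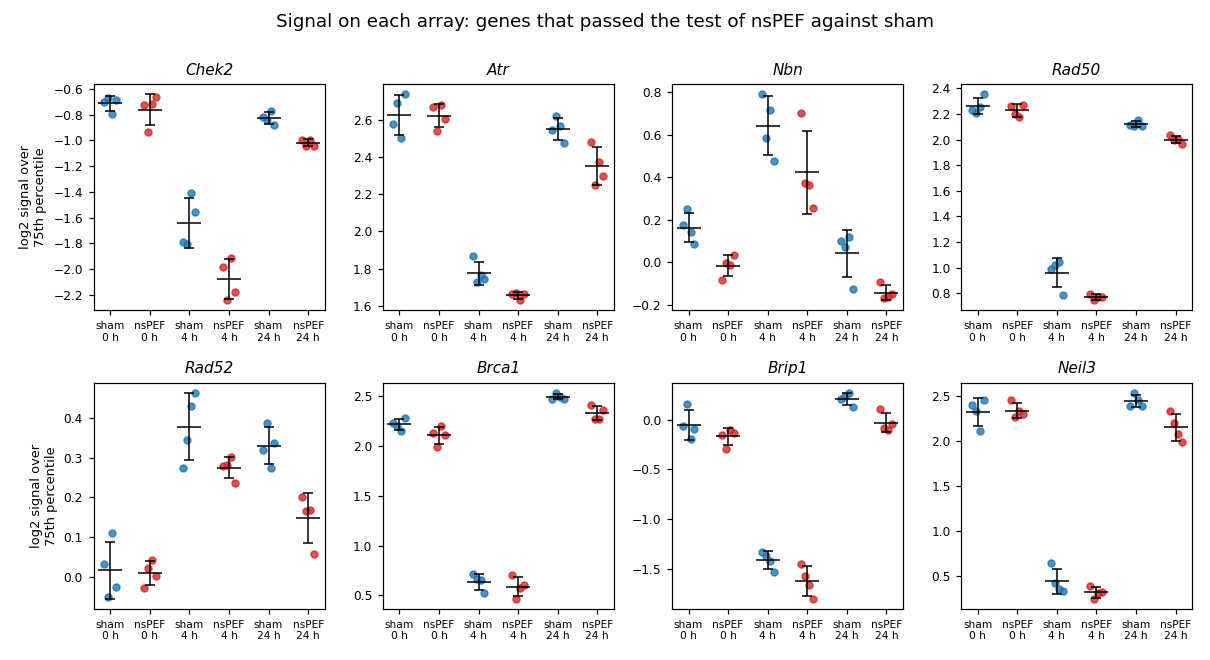
Log2 signal over the array's 75th percentile on each of the 24 arrays for the 8 genes that passed the test of nsPEF against sham at any time or over all times. Points are arrays, sham in blue and nsPEF in red, with the mean and SD of 4 arrays in black, and each panel has its own scale. For Chek2 the nsPEF points of 4 h lie between -2.24 and -1.91 and the sham points between -1.81 and -1.41.

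Other values moved with the comparison of nsPEF and sham, and their part in the result was not tested. The nsPEF arrays, which lay in the second row of each slide, had the lower shares of probes above background given above, while their 75th percentiles overlapped those of the sham arrays at 0 and 24 h. With the values centred by the spot's row on the array and its signal, 2 genes were called over all times, Chek2 (-0.21, adjusted p = 0.029) and Ercc5 (-0.14, adjusted p = 0.0223), and with spike-in scaling 3 genes, all higher, Ddb1 (0.18), Xrcc1 (0.14) and Ercc1 (0.14). Of the 20 mitosis genes, 19 were below 0 at 4 h, 3 of them called, and their summed signal was 302 to 339 on S4 and 285 to 303 on E4. Of the 20 S phase genes, 19 were below 0 at 4 h and none was called. Of 9 tested markers of Sertoli, germ, macrophage and endothelial cells, of 18 listed, Csf1r and Ddx4 were called lower over all times (-0.20 and -0.46), Csf1r also at 0 h (-0.57) and Ddx4 at 24 h (-0.71), with summed signals of the 2 tested macrophage markers of 3.09 to 3.29 on S0 and 2.47 to 3.02 on E0. The Sertoli markers Rhox5 and Sox9, the macrophage markers Cd68 and Csf1r, the endothelial marker Pecam1 and the germ cell marker Zbtb16 were above background on all 24 arrays, whereas Ptprc, Adgre1, Cdh5, Tek, Amh, Dhh, Fshr and Gata1 did not reach the detection filter.

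Probes of 1 gene did not always agree, and 30 of the 57 genes had 2 or more tested probes. At 4 h against 0 h in sham, 4 probes of called genes (Fanca, Fancc, Fance, Rad52) were not called, 2 probes of uncalled genes (Ercc4, Rad51c) were, and no pair was called in opposite directions. At 24 h against 0 h in sham, second probes of Chek1 (0.20), Blm (0.27) and Rad54b (-0.45) were called in the direction opposite to the first. A further 7 probes of called genes (Brip1, Lig3, Ercc4, Bard1, Brca1, Brca2, Rad52) were not called. Another 6 probes of uncalled genes were called: Fance (-0.28), Xpc (-0.64), Rad51c (-0.41), Ddb2 (0.32) and Msh3 (-0.557 and -0.564). At 24 h against 4 h in sham, 7 probes of called genes were not called. Among them, those of Msh3 differed by 0.11, -0.04 and 0.08, against 0.63 for the first. The probes of Fance were called in opposite directions (0.11 and -0.25). Between nsPEF and sham over all times, the second probes of Brca1 (-0.00), Brip1 (-0.09), Rad50 (0.16) and Rad52 (0.06) were not called, while those of Xpa (-0.15) and Xpc (-0.21) were, as was that of Ddb2 at 24 h (-0.34).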

How the data were processed

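RNA of TM3 cells was measured on 24 one-colour Agilent 60K mouse arrays, 4 per group. Per the labels and the study's methods, the authors extracted spot intensities with Agilent Feature Extraction 12.0, whose processed signal is background-subtracted and detrended. The authors also deposited log2 values, shifted to the 75th percentile and centred on each probe's median over all arrays. The column medians were -0.20 to 0.29 and the columns correlated at 0.96 to 0.99 with the scanner values centred likewise, and they served as an alternative. From the deposited intensity values, control spots and spots marked as non-uniform or as population outliers were left out. Spots of a probe were averaged, and log2 signals were set against each array's 75th percentile. Probes well above background on at least 2 of 4 arrays of any group were tested (37687 of 56605 probes) with limma 3.58.1 in R 4.3.3 on 6 group means, with Benjamini-Hochberg adjustment over all tested probes, as contrasts between groups, the mean over times and the interaction. Symbols came from RefSeq transcripts (34561 probes named). Of the 98 probes of the 57 genes, 93 were tested. The gene's tested probe of highest mean signal stood for it.

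Genes were named in the text if called between nsPEF and sham, or if they had the largest called change of their pathway (the top 2 for 4 h against 0 h and the top 1 for 24 h against 0 h, in sham-exposed cells), and the other members are given by their differences. Some further repair genes are not reported here by name. The genes, lists and rules were chosen with earlier results of these data known. The test was tried on simulated data. For nsPEF against sham at 4 h over 37687 probes it recovered 44 of 100 probes changed by 0.5 (log2) and 69 of 100 changed by 1, with 4 false calls. The simulated noise was independent between probes and arrays, without effects of slide, row or scaling. The false calls therefore do not give the error rate in the real arrays. Promoters were read from a RefSeq table of GRCm38.p6. Other settings of scaling, background, filter, marked spots, test, probe choice, spot position, replicate block and left-out arrays were tried.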

Additional observations from a re-analysis of the deposited data

Results flagged for a closer look

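Among the 22 named genes, 131 sets of 4 arrays of 1 gene and group were looked at, and in 5 of them a single array lay apart from the other 3 by Dixon's test. About 5% of such sets are expected to do so by chance, which is 6.55 of 131. In the E24 group, Brca2 was 1.13 on replicate 2 against 1.00 to 1.01 on the others, and Fanci was 1.54 on replicate 1 against 1.70 to 1.72. In the S24 group, Ercc1 was 2.28 on replicate 4 against 1.98 to 2.02, Exo1 was 3.71 on replicate 4 against 3.85 to 3.88, and Rad50 was 2.16 on replicate 3 against 2.11 on the others.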

How the results depend on the processing

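The counts of repair genes called at 4 h against 0 h (47 in sham, 47 in nsPEF) and at 24 h against 4 h (46) stayed within 1.5 times under all alternatives, and the 13 genes named for their change at 4 h in sham kept that call and direction under all of them and with arrays left out. With spike-in scaling 56 genes were called at 24 h against 0 h in sham and 49 in nsPEF. The median difference at 4 h in sham was -0.47 with quantile normalization, -0.35 with spike-in scaling, -0.52 with the percentile over detected probes and -0.35 with normexp. The median of all tested probes was then -0.12 with the percentile over detected probes and -0.16 with normexp. At 24 h the median over the repair genes was 0.034, 0.72 and 0.039 with quantile normalization, spike-in scaling and the percentile over detected probes.

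Between nsPEF and sham over all times, 7 genes were called. The count was 3 with spike-in scaling, 3 with the percentile over detected probes, 4 with normexp, 15 with marked spots kept, 15 in the deposited log2 values and 2 with values centred by spot row and signal. At 4 h, where 2 were called, it was 4 with quantile normalization, 1 with spike-in scaling, 1 with the percentile over detected probes, 1 with normexp, 4 without a filter, 4 with marked spots kept, 5 in the deposited values, 1 with the replicate block and 0 in the 8 arrays of 4 h alone. Chek2 and Rad50, the 2 called genes, were both lost with spike-in scaling (adjusted p 0.106 and 0.913) and with normexp (0.287 and 0.0569). The 1 gene called in each of these settings was thus another. At 24 h, where 3 were called, it was 0 with spike-in scaling, 1 with the percentile over detected probes, 0 with normexp, 7 with marked spots kept, 7 in the deposited values, 1 centred by row and 0 in the 8 arrays of 24 h alone. The median over the genes was 0.11 at 0 h and 0.11 at 4 h with spike-in scaling, and -0.045 at 4 h with the percentile over detected probes. Rad50 turned to 0.023 over all times with the mean of its probes and to 0.013 at 4 h with spike-in scaling, and Rad52 to 0.0071 over all times with spike-in scaling. The causes were not tested.

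With arrays left out, the counts ran from 0 to 9 over all times, from 0 to 4 at 4 h and from 0 to 10 at 24 h. Over all times the count was 4 without E0 replicate 1, S4 replicate 3, E4 replicate 4, S24 replicate 2 or E24 replicate 4, at 4 h it was 1 without S4 replicate 1, 2 or 3 or E4 replicate 3 or 4 and 4 without E4 replicate 1, and at 24 h it was 10 without E24 replicate 1 and 0 without S24 replicate 1, 2 or 3 or E24 replicate 2 or 4, and 1 without S0 replicate 1 or 2, E0 replicate 1, 3 or 4, S4 replicate 2 or 3, any E4 array or E24 replicate 3. Over all tested probes same-numbered arrays did not deviate together (60 pairs, correlations from -0.05 to 0.09). This does not show whether the numbers pair the arrays, and the number was also the array's column on its slide. The study states that the tests of a biological replicate, adhesion aside, shared a suspension of TM3 cells. Whether the array numbers mark those suspensions is not stated, and the main fit used no pairing. Apart from the 4 h count, the replicate block moved no count by over 1.5 times. The 5 medians moved by less than their spread between replicates (0.04) with arrays left out.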

Other observations

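Of the 79 further repair genes, 4 were called lower over all times and none higher, near the share of all tested probes (4.44% lower, 4.4% higher): Ube2t, which conjugates ubiquitin to Fancd2 (-0.15), the mismatch factor Pms1 (-0.17), the end-processing nuclease Dclre1c (-0.15) and the ubiquitin ligase Rnf168 (-0.12). At 4 h 1 was called, Pms1 (-0.30, adjusted p = 0.0239), against 3.31% of all tested probes in either direction, and at 24 h 2 were called, against 4.82%: Rad51b was lower (-0.32, adjusted p = 0.0265) and Apex2 higher (0.48, adjusted p = 0.00373).

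Of 12 targets of p53, Gadd45a, a growth arrest gene, was higher (0.40, adjusted p = 0.014) and Ccng1 lower (-0.32, adjusted p = 0.0188) at 4 h after nsPEF. At 24 h Aen (0.23, adjusted p = 0.0265) and Phlda3 (0.26, adjusted p = 0.044) were higher and Trp53inp1 lower (-0.45, adjusted p = 0.0345), with the other 9 not called. Of all tested probes, 3.31% were called in either direction at 4 h and 4.82% at 24 h. The summed signal of the 12 targets was 167.8 to 189 on S4 and 176 to 180.5 on E4. It was 99.1 to 103.6 on S24 and 105.8 to 118 on E24. Adjusted p is limma's.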
